A study of Mus musculus with 10 samples.

Results

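Transcripts of the E protein and Id genes were followed through ex vivo T-lineage induction of mouse marrow progenitors. The members were taken by gene symbol. Tcf3, Tcf4 and Tcf12 encode the E proteins E2A, E2-2 and HEB, and Id1, Id2 and Id3 encode 3 of their inhibitors. They are 6 of the 24062 genes listed in each library, and all 6 passed the filter on low counts, which kept 12221 genes with at least 1 CPM (a count scaled to the size of its library) in 2 or more libraries.

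The series holds 10 total RNA libraries in 4 groups, all from wild-type C57BL/6J LSK cells, the lineage-negative Sca-1+ KIT+ marrow fraction rich in stem and progenitor cells. LSK cells were cultured with KIT ligand, FLT3 ligand, IL-6 and IL-11, either on the immobilized Notch ligand Delta1ext-IgG or on human IgG1, the "no Notch" control. Cells from ligand cultures were sorted as DN1 (KIT++ CD44+ CD25-, n = 2), DN2a (KIT++ CD44+ CD25+, n = 2) and DN2b (KIT+ CD44lo CD25+, n = 2), where replicate 1 and replicate 2 carry an earlier and a later year in their labels. The 4 IgG libraries were harvested at day 14 and carry the letters D1, D2, R1 and R2, whose meaning the labels do not give. IL-7 was added to the cultures that gave DN2a and DN2b and not to those that gave DN1, so stage and IL-7 cannot be told apart. The study describes IL-7 for the ligand cultures alone, from day 14. DN2a and DN2b therefore also differ from the day 14 IgG libraries by IL-7 and by time in culture. The IgG cells did not pass the DN gates. Against IgG, Notch ligand thus cannot be told apart from sorting or, in DN2a and DN2b, from IL-7 and time. Per the study's methods the replicates came from separate LSK isolations, and p-values measure the spread between these libraries.

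E proteins are basic helix-loop-helix transcription factors that bind DNA as dimers at E boxes (CANNTG) and drive the early B and T lymphoid programmes, including the genes of antigen receptor rearrangement. Id proteins have the helix-loop-helix but lack the basic DNA-binding region. They pair with E proteins and keep them off DNA, so the amount of E protein relative to Id protein sets E protein activity. Id2 is required for innate lymphoid and several dendritic lineages, Id3 is induced by pre-T-cell and T-cell receptor signalling, and Tcf4 is the E protein of plasmacytoid dendritic cells.

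Gene counts ranged from 12354635 to 35367925 per library. Levels are CPM after scaling by edgeR's trimmed mean of M-values (TMM), differences are log2 fold changes (log2FC) with their standard error (SE) from edgeR's quasi-likelihood fit of all 10 libraries, and a gene was called where its Benjamini-Hochberg adjusted p over the 12221 genes was under 0.05. Of the 3 sort markers, Il2ra followed the labels, and Kit and Cd44 did so in part. Kit levels of the DN2a libraries (173 and 212 CPM) overlapped those of DN2b (130 and 176 CPM), although their KIT labels differ. DN1, which shares its KIT label with DN2a, had higher Kit levels (368 and 319 CPM). Cd44 was lowest in the DN2b libraries (13.5 and 10.9 CPM), as labelled. Its DN2a levels (44.3 and 54.2 CPM) were below those of DN1 (116 and 159 CPM), although both carry the same CD44 label. Il2ra, which encodes CD25, ranged from 1170 to 2175 CPM in the DN2a and DN2b libraries, from 18.9 to 23.2 in DN1 and up to 2.07 in IgG. The summed level of 8 T-lineage markers ran from 1.90 to 8.62 CPM in IgG, from 324 to 454 in DN1, from 1516 to 1932 in DN2a and from 3157 to 4154 in DN2b. The summed level of 9 neutrophil and monocyte markers ran the other way, from 26136 to 76931 CPM in IgG, from 145 to 2501 in DN1, from 10.9 to 15.7 in DN2a and from 5.65 to 7.67 in DN2b. The part of this cell mixture in the differences from IgG below was not tested, and fewer cells of a type and less RNA per cell cannot be told apart in such bulk libraries.

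Against the "no Notch" control, the E protein genes that were called were higher and the Id genes that were called were lower. In DN1, Tcf3 and Tcf12 were higher and Id1, Id2 and Id3 were lower than in IgG, so 5 of the 6 members were called where 31.4% of all genes tested were (14.3% higher and 17.0% lower). Leaving out 1 library gave 2 to 4 of these calls, and IgG R1 and R2 alone as control gave 2. In DN2a and in DN2b, 3 of the 6 were called, with Tcf12 higher and Id1 and Id2 lower, beside 45.5% of all genes in DN2a (21.2% higher and 24.3% lower) and 42.5% in DN2b (19.9% higher and 22.5% lower). Tcf4 was called in none of these comparisons. The 3 comparisons share the same 4 control libraries and are not independent of each other. The share of members called in DN2a and DN2b was near that of all genes, and the members are described one by one for that reason.

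**Figure D1:**
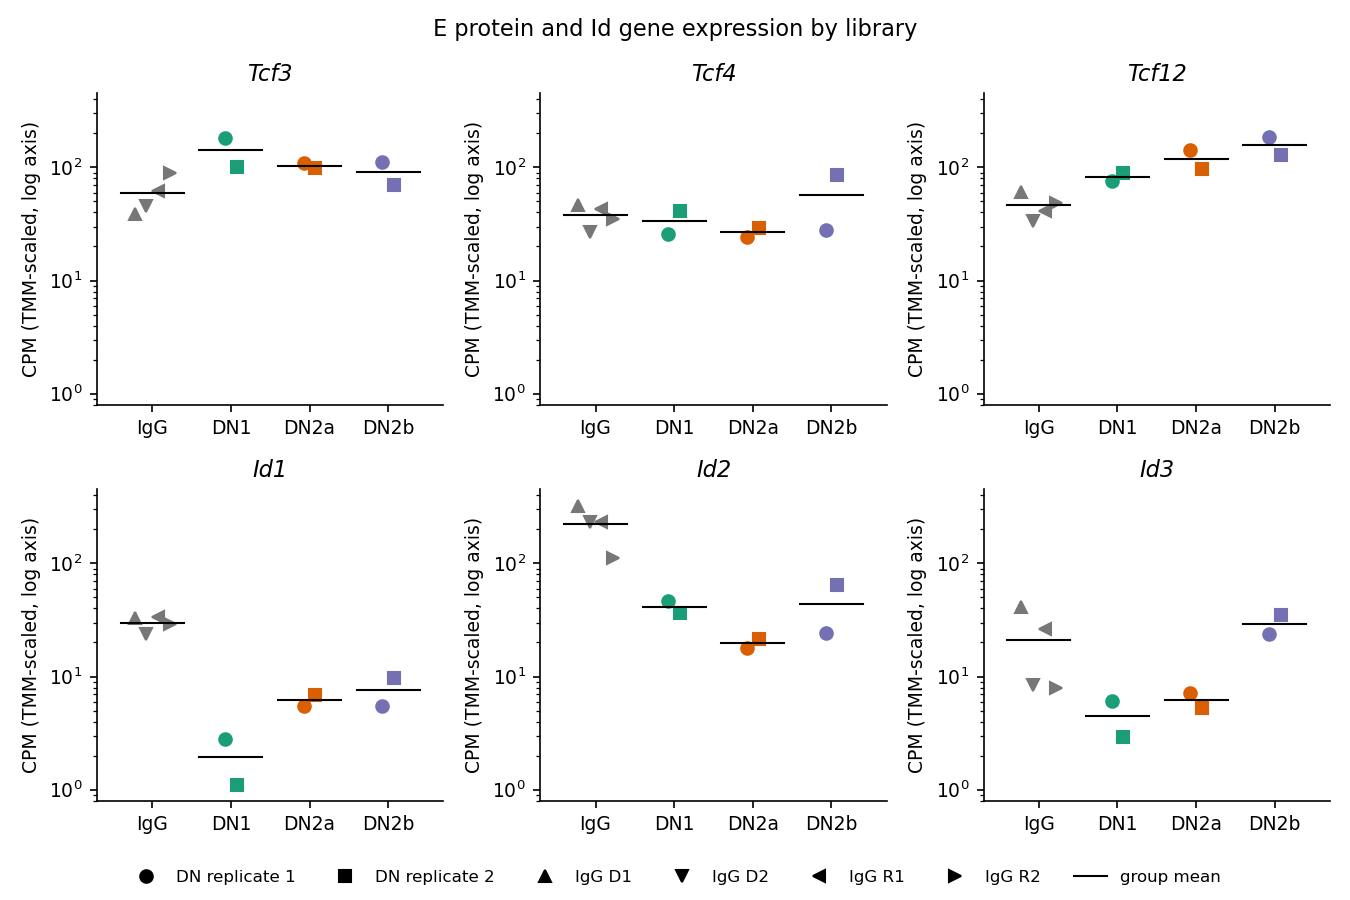
Expression of the 6 genes in every library, as TMM-scaled CPM on a log axis, with a bar at each group mean (IgG n = 4, DN1, DN2a and DN2b n = 2 each). Id1 and Id2 lie lower in all 6 DN libraries than in any IgG library, Tcf12 lies higher in all 6, and Id3 returns to the IgG range in DN2b.

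Tcf3 (ENSMUSG00000020167.14, chromosome 10, 80409514 to 80433647, minus strand, GENCODE vM21 on mm10) encodes E12 and E47, the E proteins without which early B and T development largely fails. Its level was 38.9, 46.0, 62.4 and 89.3 CPM in IgG D1, D2, R1 and R2, 182.4 and 100.2 CPM in DN1 replicates 1 and 2, 108.7 and 99.1 CPM in DN2a, and 111.5 and 70.4 CPM in DN2b. Every DN1 and DN2a library was above every IgG library, DN2b overlapped IgG through replicate 2, and the IgG libraries alone spanned 2.30-fold. The order of the group means, DN1, DN2a, DN2b and then IgG, was a slope in which neighbouring DN stages overlapped. Against IgG the log2FC was 1.26 (SE 0.36, edgeR quasi-likelihood adjusted p = 0.0281) in DN1, a 2.39-fold higher level. It was 0.81 (SE 0.37, edgeR adjusted p = 0.097) in DN2a and 0.62 (SE 0.37, edgeR adjusted p = 0.198) in DN2b, which did not pass. The DN1 call was lost without DN1 replicate 1, the highest library (log2FC 0.76, edgeR adjusted p = 0.228), without IgG D1 (edgeR adjusted p = 0.0549) and without IgG R1 (edgeR adjusted p = 0.0593). DN1 replicates 1 and 2 also differed in markers of other cells, with summed levels of 515 against 125 CPM for 6 erythroid and megakaryocyte markers, 1569 against 459 CPM for 6 mast cell and basophil markers and 2501 against 145 CPM for the neutrophil and monocyte markers. The order of the sums was the other way for 8 conventional dendritic cell markers (62.1 against 207 CPM), 8 plasmacytoid dendritic cell markers (60.3 against 71.8 CPM) and 7 B cell markers (9.01 against 13.8 CPM). The conventional dendritic sum came mostly from Itgax (35.5 against 116 CPM) and Flt3 (20.2 against 90.0 CPM). H2-Aa (5.00 against 0.65 CPM), Zbtb46, Batf3, Xcr1 and Clec9a were higher in replicate 1 instead, and Cd209a had no counts. The part of all these cells in the Tcf3 value was not tested. Conversely, without IgG R2 the DN2a difference passed (edgeR adjusted p = 0.0322).

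Tcf12 (chromosome 9, 71842688 to 72111871, minus strand) encodes HEB, the E protein partner of E2A in thymocytes, where the dimer acts on Ptcra and other T-lineage genes. Its level was 60.6, 33.9, 41.1 and 48.9 CPM in IgG D1, D2, R1 and R2, 75.5 and 88.7 CPM in DN1 replicates 1 and 2, 142.2 and 97.4 CPM in DN2a, and 185.4 and 127.7 CPM in DN2b. All 6 DN libraries lay above all 4 IgG libraries, and the group means rose from IgG through DN1 and DN2a to DN2b, although DN2a and DN2b overlapped. Against IgG the log2FC grew from 0.83 (SE 0.28, edgeR adjusted p = 0.0478) in DN1 to 1.38 (SE 0.28, edgeR adjusted p = 0.00397) in DN2a and 1.76 (SE 0.27, edgeR adjusted p = 0.00135) in DN2b. The DN2b call, a 3.40-fold higher level, was made under all 20 alternative settings run, while the DN2a call was lost without DN2a replicate 1 (edgeR adjusted p = 0.0515). The DN1 call stood at the threshold. It was made under 7 of 20 alternatives and was lost, with edgeR adjusted p-values from 0.0505 to 0.2, on leaving out DN1 replicate 1, DN1 replicate 2, DN2a replicate 1, DN2a replicate 2, DN2b replicate 1, IgG D2, IgG R1 or IgG R2.

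Tcf4 (chromosome 18, 69343356 to 69689079, plus strand) was the E protein gene without a called change. Its level was 46.8, 26.7, 43.3 and 34.9 CPM in IgG D1, D2, R1 and R2, 25.8 and 41.2 CPM in DN1 replicates 1 and 2, 24.2 and 29.2 CPM in DN2a, and 27.9 and 85.3 CPM in DN2b. The groups overlapped throughout, and DN2b replicate 2 stood above every other library at 3.05-fold the level of DN2b replicate 1. The log2FC against IgG was -0.18 (SE 0.43, edgeR adjusted p = 0.779) in DN1, -0.51 (SE 0.43, edgeR adjusted p = 0.361) in DN2a and 0.58 (SE 0.42, edgeR adjusted p = 0.282) in DN2b. The DN2b value turned to -0.43 without DN2b replicate 2, and the DN1 value turned to 0.12 without DN1 replicate 1 and to 0.071 when libraries were scaled to size without TMM. DN2b replicate 2 was also the library with Ebf1, the B-lineage factor, at 4.46 CPM, where the other 9 libraries held at most 0.20. The 8 markers of plasmacytoid dendritic cells, which depend on Tcf4, summed to 189 to 696 CPM in IgG, 60.3 to 71.8 in DN1, 115 to 136 in DN2a and 157 to 179 in DN2b, sums that came mostly from Bst2, Irf7 and Ly6d, which other cells express too. Siglech was at most 0.30 CPM in any library and Klk1 was at 0 in all 10. Of the 6 that passed the filter, Ly6d was called higher in all 3 stages, Irf7 lower in all 3, and Bst2 and Spib lower in DN1 and DN2a. The part of such cells in the Tcf4 values was not tested.

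Id2 (chromosome 12, 25093799 to 25097140, minus strand) had the highest level per kilobase of the Id genes in IgG. Its level was 318.9, 231.6, 231.9 and 110.9 CPM in IgG D1, D2, R1 and R2, 46.1 and 36.5 CPM in DN1 replicates 1 and 2, 17.9 and 21.4 CPM in DN2a, and 24.2 and 64.0 CPM in DN2b. No DN library reached the lowest IgG library, R2. The lowest DN levels were those of DN2a, which lay under both DN1 libraries, and the DN2b libraries stood 2.64-fold apart. Against IgG, Id2 fell by 2.43 on the log2 scale (SE 0.50, edgeR adjusted p = 0.0074) in DN1, by 3.51 (SE 0.54, edgeR adjusted p = 0.00122) in DN2a and had a log2FC of -2.34 (SE 0.50, edgeR adjusted p = 0.00589) in DN2b, which are 5.41-fold, 11.4-fold and 5.07-fold lower levels. The DN2a and DN2b calls were made under all 20 alternatives. The DN1 call was lost without DN1 replicate 2 (edgeR adjusted p = 0.0649), and the DN2b value was -3.20 without DN2b replicate 2.

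Id1 (chromosome 2, 152736251 to 152737410, plus strand), a classical target of BMP signalling, had its lowest level in DN1. Its level was 33.3, 23.9, 33.6 and 29.1 CPM in IgG D1, D2, R1 and R2, 2.82 and 1.10 CPM in DN1 replicates 1 and 2, 5.44 and 6.90 CPM in DN2a, and 5.54 and 9.63 CPM in DN2b. The IgG libraries spanned only 1.41-fold, and the highest DN library remained below the lowest of them. The DN1 level rested on 76 and 22 counts, and both DN1 libraries lay under all 4 DN2a and DN2b libraries. Id1 fell by 3.92 on the log2 scale (SE 0.49, edgeR adjusted p = 0.000845) in DN1, a 15.2-fold lower level, by 2.28 (SE 0.44, edgeR adjusted p = 0.00326) in DN2a and by 1.98 (SE 0.43, edgeR adjusted p = 0.00631) in DN2b. The DN1 and DN2a calls were made under all 20 alternatives, with -4.76 in DN1 without DN1 replicate 1, and the DN2b call was lost without DN2b replicate 1 (edgeR adjusted p = 0.0654).

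Id3 (chromosome 4, 136143497 to 136145755, plus strand), which in thymocytes is induced through Egr factors, had the widest spread in the control. Its level was 41.6, 8.34, 26.2 and 7.87 CPM in IgG D1, D2, R1 and R2, 6.08 and 2.94 CPM in DN1 replicates 1 and 2, 7.12 and 5.27 CPM in DN2a, and 23.5 and 35.3 CPM in DN2b. The IgG libraries spanned 5.29-fold, DN1 and DN2a lay below all of them, and DN2b lay within their range and above every DN1 and DN2a library. Against IgG the log2FC was -2.21 (SE 0.75, edgeR adjusted p = 0.0489) in DN1, -1.76 (SE 0.73, edgeR adjusted p = 0.0745) in DN2a and 0.49 (SE 0.65, edgeR adjusted p = 0.566) in DN2b. The DN1 call was made under 5 of 20 alternatives. It was lost without DN1 replicate 1 (log2FC -2.83, edgeR adjusted p = 0.0879), without DN1 replicate 2 (edgeR adjusted p = 0.241), and, with edgeR adjusted p-values from 0.0615 to 0.0943, without DN2a replicate 1, DN2a replicate 2, DN2b replicate 1, DN2b replicate 2, IgG D1 or IgG R1. The DN2a difference passed with DESeq2 (adjusted p = 0.0205), without IgG D2 (edgeR adjusted p = 0.0368) and without IgG R2 (edgeR adjusted p = 0.0393).

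Id4, the remaining Id gene, was at or near the floor. It had 1, 4, 0 and 1 counts in the IgG libraries and at most 5 counts in any DN library, did not pass the filter and was not tested, and a total of 3 counts is the least that the depth can tell from 0.

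**Figure D2:**
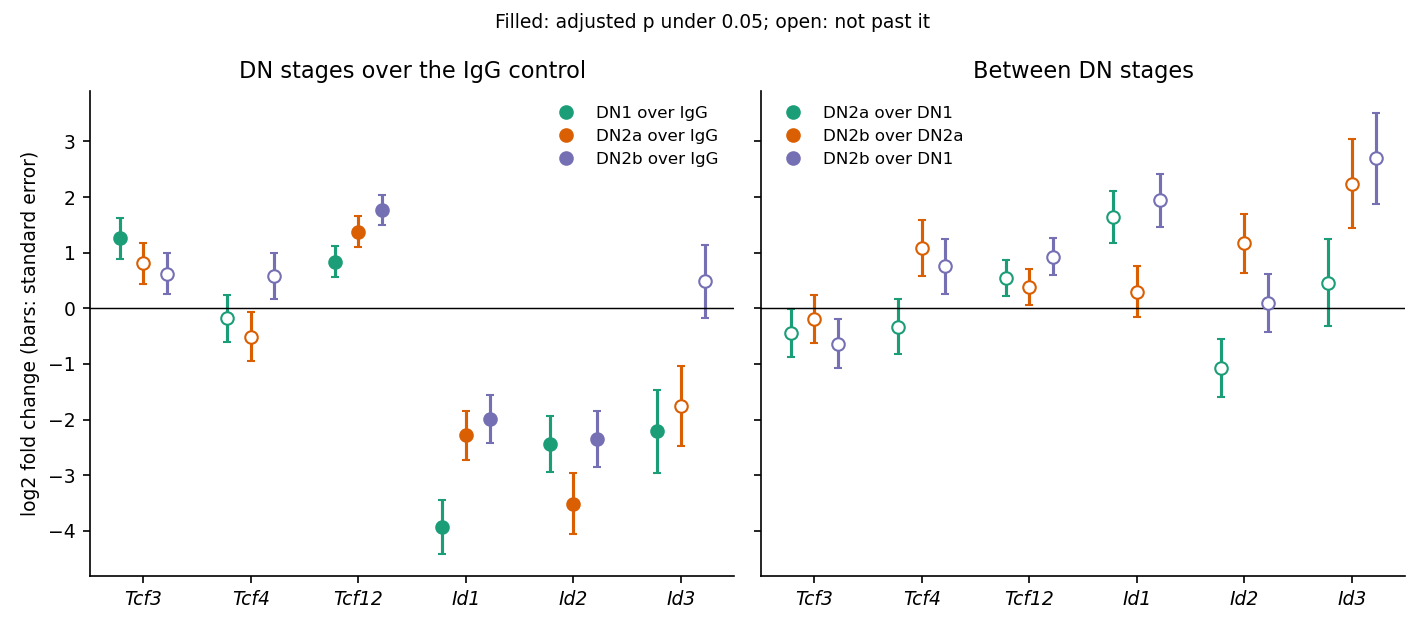
Fitted log2 fold changes of the 6 genes with their standard errors, for each DN stage over IgG (left) and between DN stages (right). Filled points passed an adjusted p of 0.05; all filled points are on the left, where Tcf12 rises from 0.83 to 1.76 and Id1 runs from -3.92 to -1.98, and every point between DN stages is open.

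Counting libraries rather than tests gave a similar picture against IgG. The libraries did not overlap for 5 of the 6 members in DN1 (49.0% of all genes tested), for 5 of 6 in DN2a (63.1% of all genes) and for 3 of 6 in DN2b (59.0% of all genes). The share for DN2b was below that of all genes, with Tcf3, Tcf4 and Id3 overlapping.

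The balance of E protein to Id transcripts, the sum of Tcf3, Tcf4 and Tcf12 over the sum of Id1, Id2 and Id3 in CPM, was higher in every DN library than in any IgG library. It was 0.371, 0.404, 0.503 and 1.17 in IgG D1, D2, R1 and R2, 5.16 and 5.67 in DN1 replicates 1 and 2, 9.04 and 6.71 in DN2a, and 6.10 and 2.60 in DN2b. On this formula DN2a held the highest ratios, and DN2b replicate 2 the lowest of the DN libraries. On the log2 scale the group means were -0.88 ± 0.76 (SD, n = 4) in IgG, 2.44 ± 0.10 (SD, n = 2) in DN1, 2.96 ± 0.30 (SD, n = 2) in DN2a and 1.99 ± 0.87 (SD, n = 2) in DN2b. The difference from IgG was 3.31 in DN1, 3.84 in DN2a and 2.87 in DN2b, that is 9.93-fold, 14.3-fold and 7.31-fold higher ratios. The DN2b difference was 3.48 without DN2b replicate 2 and 2.26 without DN2b replicate 1. The balance combines genes with values given above and is described without a test.

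Both terms of the ratio moved, the Id sum more than the E protein sum. Group means of the E protein sum were 143 CPM in IgG and 257, 250 and 304 in DN1, DN2a and DN2b. Those of the Id sum were 274 CPM in IgG and 47.8, 32.0 and 81.1 in the same stages, and Id2 made up 80.8% of it in IgG. The E protein sum ran from 107 to 173 CPM in IgG and from 226 to 325 in the DN libraries, and the Id sum from 148 to 394 in IgG and from 30.4 to 109 in the DN libraries. Neither sum overlapped between IgG and DN. Because CPM rises with transcript length and the Id transcripts are short, the point of equal sums has no meaning of its own. Per kilobase of annotated exon the log2 balance was -2.74 ± 0.89 (SD, n = 4) in IgG, 0.96 ± 0.12 in DN1, 1.03 ± 0.25 in DN2a and -0.19 ± 1.03 in DN2b (n = 2 for each stage), so the gap to IgG kept its direction while the zero point moved.

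**Figure D3:**
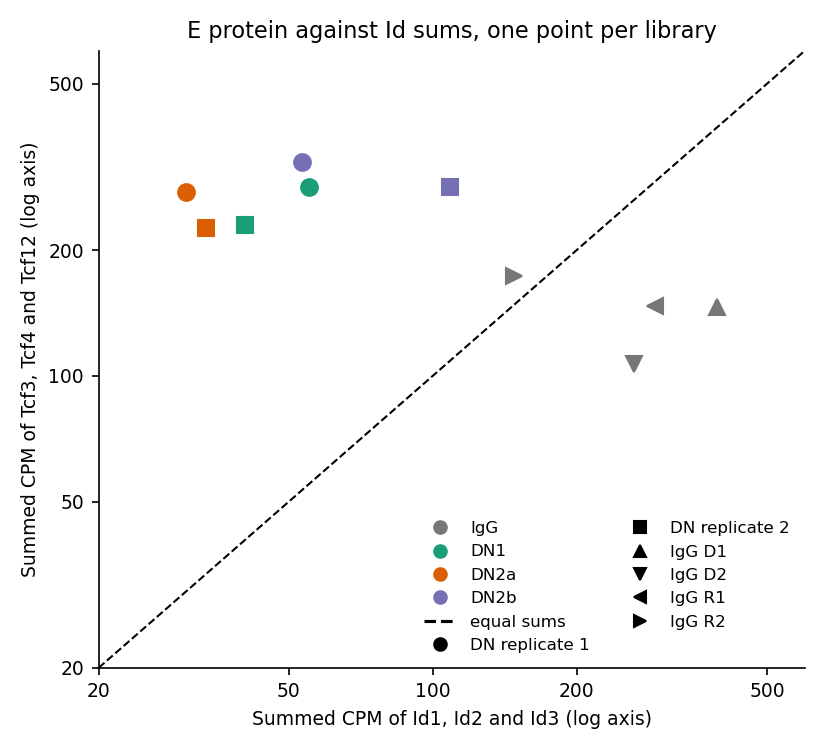
Summed CPM of Tcf3, Tcf4 and Tcf12 against summed CPM of Id1, Id2 and Id3, one point per library on log axes, with a dashed line of equal sums. The 6 DN libraries lie to the upper left, with E protein sums from 226 to 325 and Id sums from 30.4 to 109, and the 4 IgG libraries to the lower right, with IgG R2 nearest to them.

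The ratio was also read by pairs of genes. Of the 9 ratios of 1 E protein gene to 1 Id gene, 8 were higher in both DN1 libraries than in all IgG libraries, 8 in DN2a and 6 in DN2b. The exceptions were Tcf4 to Id3 in DN1 and DN2a and all 3 ratios to Id3 in DN2b. These ratios recombine the same 6 genes, so the counts follow from the levels given above. No share over other gene pairs was taken. The mean log2 differences from IgG ran from 1.77 (Tcf4 to Id3) to 5.34 (Tcf3 to Id1) in DN1, from 0.94 (Tcf4 to Id3) to 4.80 (Tcf12 to Id2) in DN2a and from -0.42 (Tcf4 to Id3) to 4.18 (Tcf12 to Id2) in DN2b.

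The make-up of both sums differed between groups. Tcf12 made up 32.4% ± 6.29 (SD, n = 4) of the E protein CPM in IgG, 32.6% ± 8.43 (SD, n = 2) in DN1, 47.4% ± 6.05 (SD, n = 2) in DN2a and 51.1% ± 8.50 (SD, n = 2) in DN2b. All 4 DN2 libraries exceeded all IgG and DN1 libraries in this share. The share of Id2 in the Id CPM was 80.8% ± 5.30 (SD, n = 4) in IgG, 86.9% ± 4.41 (SD, n = 2) in DN1, 61.3% ± 3.60 (SD, n = 2) in DN2a and 52.1% ± 9.43 (SD, n = 2) in DN2b. The share of Id3 was 7.01% ± 3.38 (SD, n = 4) in IgG, 9.15% ± 2.69 (SD, n = 2) in DN1, 19.5% ± 5.47 (SD, n = 2) in DN2a and 38.3% ± 8.34 (SD, n = 2) in DN2b. The DN2 libraries thus drew less of their Id sum from Id2 and more from Id3 than any IgG or DN1 library. These shares are not shares of molecules, since longer transcripts weigh more, and are compared between libraries only.

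**Figure D4:**
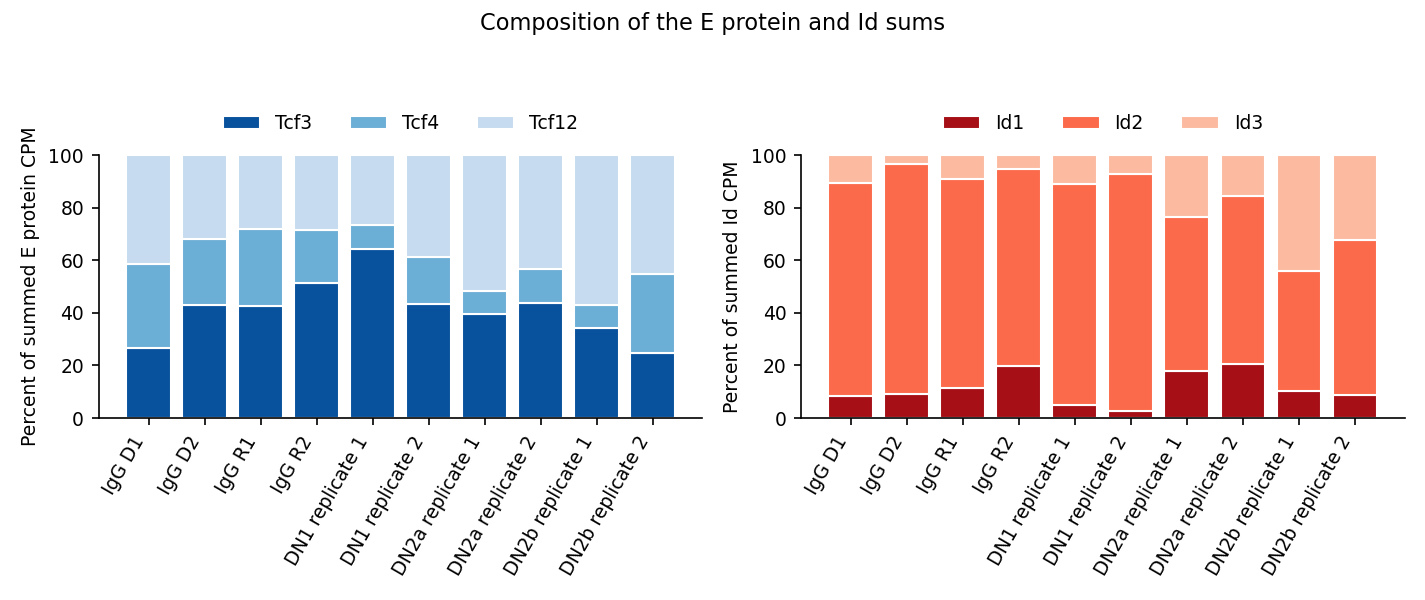
Percent of the summed E protein CPM from each E protein gene (left) and of the summed Id CPM from each Id gene (right), one stacked bar per library. The Tcf12 share is largest in the 4 DN2 libraries, from 43.1% to 57.1%, and the Id3 share is largest in the 2 DN2b libraries, 44.2% and 32.4%.

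Between genes, levels can be set side by side per kilobase. Tcf3 had the highest mean CPM per kilobase of the E protein genes in every group, on the length of annotated exons and on that of the longest coding transcript alike. On exon length it had 14.6 ± 5.54 (SD, n = 4) in IgG and 35.0 ± 14.4 (SD, n = 2) in DN1, where Tcf12 had 2.97 ± 0.74 and 5.29 ± 0.60. Whether Tcf4 lay above or below Tcf12 in IgG depended on the length used (1.39 against 2.97 on exons, 8.92 against 7.32 on the coding transcript). In DN2b, Id2 (18.1 ± 11.5 on exons) and Id3 (16.4 ± 4.62) differed by less than their spread (SD, n = 2 each).

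Between DN stages no member passed the test. None of the 6 was called in DN2a against DN1 (0.401% of all genes), in DN2b against DN2a (0.0%) or in DN2b against DN1 (1.91%) by edgeR's quasi-likelihood test. At an unadjusted p under 0.05, 1, 1 and 3 members passed, beside 1328, 335 and 1694 of the 12221 genes, and DESeq2 called 1, 0 and 2 members, beside 474, 29 and 822 genes. In DN2b against DN2a, edgeR called 0 genes of any kind.

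The largest differences between stages belonged to the Id genes. Id3 was 4.73-fold higher in DN2b than in DN2a (log2FC 2.24, SE 0.80, edgeR adjusted p = 1.0) and 6.49-fold higher than in DN1 (log2FC 2.70, SE 0.82, edgeR adjusted p = 0.161), with no overlap of libraries. Id1 was higher in DN2a than in DN1 by a log2FC of 1.64 (SE 0.47, edgeR adjusted p = 0.239) and in DN2b than in DN1 by 1.94 (SE 0.48, edgeR adjusted p = 0.09), also with no overlap. DESeq2 called Id1 in both (adjusted p = 0.0423 and 0.00432) and Id3 in DN2b against DN1 (adjusted p = 0.0144). Without DN1 replicate 1 the Id1 differences were 2.48 in DN2a and 2.78 in DN2b and that of Id3 in DN2b was 3.32, and without DN1 replicate 2 they were 1.13, 1.43 and 2.28. Calls on the Id genes between stages thus depended on the tool.

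Among the E protein genes, Tcf12 was higher in DN2b than in DN1 by a log2FC of 0.93 (SE 0.33, edgeR adjusted p = 0.235), with no overlap. Tcf3 showed -0.64 (SE 0.44, edgeR adjusted p = 0.586) and Tcf4 0.76 (SE 0.49, edgeR adjusted p = 0.565) in the same comparison, both with overlap, and these became -0.14 for Tcf3 without DN1 replicate 1 and -0.26 for Tcf4 without DN2b replicate 2. Id2 was lower in DN2a than in DN1 (log2FC -1.07, SE 0.52, edgeR adjusted p = 0.51) and higher in DN2b than in DN2a (log2FC 1.17, SE 0.52, edgeR adjusted p = 1.0), both without overlap, which left DN2b against DN1 at 0.093 (SE 0.52). Without DN2b replicate 2 the difference of DN2b was 0.30 from DN2a and -0.77 from DN1. Without overlap stood 3 of 6 members in DN2a against DN1 (43.4% of all genes tested), 2 of 6 in DN2b against DN2a (30.5%) and 3 of 6 in DN2b against DN1 (42.7%), shares near those of all genes. The log2 balance was 0.53 higher in DN2a than in DN1, 0.97 lower in DN2b than in DN2a (both without overlap of libraries) and 0.44 lower in DN2b than in DN1, where the libraries overlapped and leaving out DN2b replicate 2 gave 0.17 higher. Without the same library the difference of DN2b from DN2a was -0.35. The difference of DN2a from DN1 depended on the formula, at -0.47 as the mean of log2 values, -1.08 without Id2, and 0.074 per kilobase of exon, where the libraries overlapped.

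Of 16 genes reported as E protein targets in lymphoid progenitors, 12 passed the filter. Against IgG, 6 were higher and 3 lower in DN1, 6 higher and 3 lower in DN2a, and 7 higher and 1 lower in DN2b, so 9, 9 and 8 of the 12 were called where 31.4%, 45.5% and 42.5% of all genes were (5 without DN1 replicate 2 in DN1 and 5 without DN2a replicate 1 in DN2a), with median log2FC of 1.21, 2.03 and 2.61 where the median over all genes lay between -0.05 and 0.01. Higher in all 3 stages were Rag1 and Rag2 (the recombinase), Dntt (terminal transferase), Ptcra (the pre-T-cell receptor alpha chain), Vpreb1 (a surrogate light chain) and Hes1 (also a direct Notch target), joined in DN2b by Foxo1. All of these but Foxo1 had a mean of at most 0.44 CPM in IgG, under the 1 CPM of the filter. They passed the filter through the DN libraries, so their direction was largely set by it. The counts and medians of this list are descriptions and do not bear on E protein activity.

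Dntt was at 0.11 ± 0.13 CPM (SD, n = 4) in IgG, 4.63 ± 0.99 in DN1, 8.29 ± 1.19 in DN2a and 69.5 ± 13.5 in DN2b, with n = 2 and the SD for each stage. It was the target gene that also passed between stages, in DN2b against DN1 (log2FC 3.91, SE 0.70, edgeR adjusted p = 0.0281), a call made under 12 of 20 alternatives and lost without any 1 of the 6 DN libraries or IgG R1. Rag1 was at 0.08 CPM in IgG, 2.01 ± 1.74 in DN1, 5.55 ± 4.80 in DN2a and 21.9 ± 19.3 in DN2b, and Ptcra at 0.44, 7.97 ± 3.67, 6.71 ± 6.35 and 23.6 ± 23.7, so the libraries of a stage were far apart for both. The IgG libraries held at most 4 counts of Rag1, 3 of Rag2, 5 of Dntt, 5 of Vpreb1 and 10 of Hes1, and the sizes of these folds rest on those few counts. Rag2, Dntt and Hes1 were called against IgG in all 3 stages under every one of the 20 alternatives. Vpreb1 in DN1 was called under 11 of 19 alternatives and lost without DN1 replicate 2, IgG D1, IgG R1 or IgG R2, Rag1 in DN1 was lost without DN1 replicate 2, Ptcra in DN2a without DN2a replicate 1, and Foxo1 in DN2b without DN2b replicate 2, IgG R1 or IgG R2.

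The lower genes of this list were Cxcr4 in all 3 stages and Gfi1 and Il7r in DN1 and DN2a. Cxcr4, a chemokine receptor, was at 270 CPM in IgG and fell by 1.87 (SE 0.33, edgeR adjusted p = 0.00376), 1.37 (SE 0.32, edgeR adjusted p = 0.00807) and 0.97 (SE 0.32, edgeR adjusted p = 0.0334) on the log2 scale in DN1, DN2a and DN2b. The DN2a call was lost without DN2a replicate 1, and the DN2b call without DN2a replicate 1, DN2b replicate 1, IgG D1, IgG D2 or IgG R1. Gfi1, a repressor active in granulocytes and lymphocytes, fell by 3.09 (SE 0.76, edgeR adjusted p = 0.0153) in DN1 and 2.36 (SE 0.73, edgeR adjusted p = 0.0263) in DN2a, each lost without either library of that stage, and was at -1.90 (edgeR adjusted p = 0.0561) in DN2b. Il7r, the IL-7 receptor alpha chain, fell by 3.07 (SE 0.90, edgeR adjusted p = 0.0288) in DN1 and 2.92 (SE 0.89, edgeR adjusted p = 0.0242) in DN2a, again lost without either library of that stage.

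**Figure D5:**
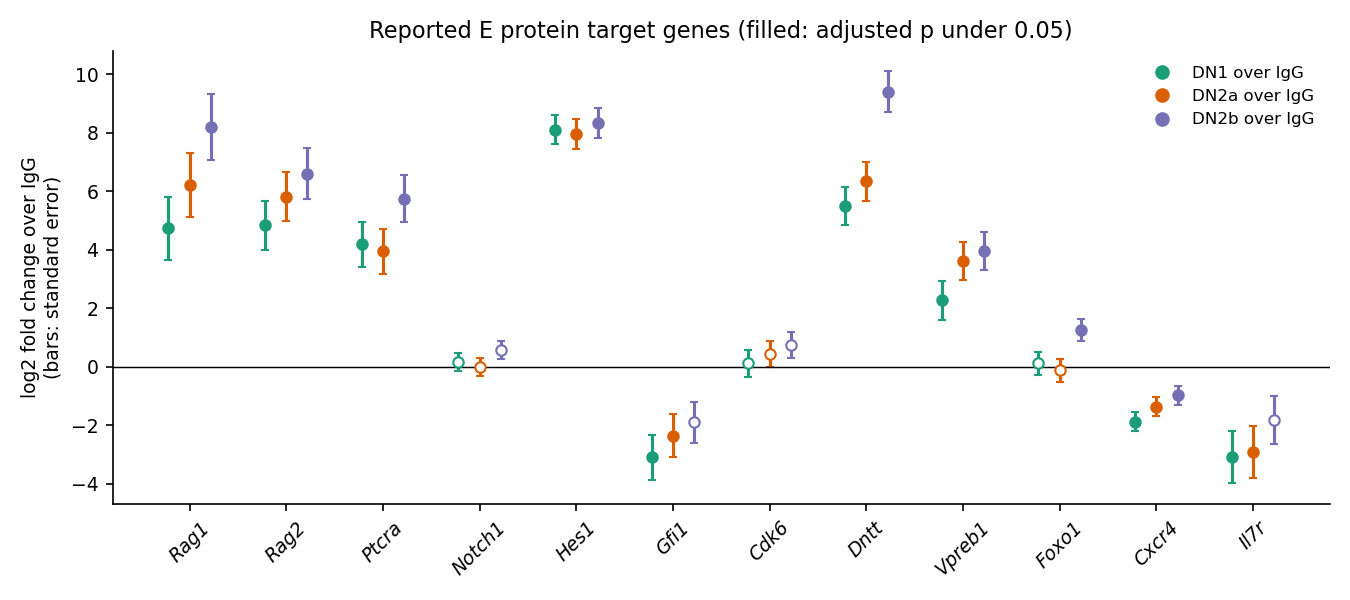
Fitted log2 fold changes over IgG, with standard errors, of the 12 tested genes of the E protein target list in DN1, DN2a and DN2b (filled where adjusted p was under 0.05). Rag1, Rag2, Ptcra, Hes1, Dntt and Vpreb1 are filled and above 0 in all 3 stages, Cxcr4 is filled and below 0 in all 3, and Notch1 and Cdk6 are open near 0.

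Among the partners of E proteins, the haematopoietic bHLH factors Tal1 and Lyl1 and the cofactors that join them were read from separate lists. Of 7 bHLH partners, 3 passed the filter and 1 was called (31.4% of all genes in that comparison), Tal1 in DN1 (99.3 ± 44.6 CPM, n = 2, against 31.5 in IgG, log2FC 1.66, SE 0.48, edgeR adjusted p = 0.0292). That call was lost without DN1 replicate 1, IgG D2 or IgG R2. Lyl1 was at 92.7 CPM in IgG and from 79.6 to 120 CPM in the DN group means, with no call. The part of the cell markers that differed between the DN1 libraries, given beside Tcf3, was not tested for Tal1 either.

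Of 7 LIM-domain and ETO cofactors, all passed the filter, and 3 were called in DN1, 2 in DN2a and 3 in DN2b against IgG, where 31.4%, 45.5% and 42.5% of all genes were. These counts recurred under 13, 14 and 5 of 20 alternatives. Lmo2, a bridging factor of stem cell and erythroid E protein complexes, was at 114 CPM in IgG, 99.6 ± 57.3 in DN1, 6.19 ± 2.27 in DN2a and 4.38 ± 3.93 in DN2b, with n = 2 and the SD for each stage. Against IgG it fell by 4.22 (SE 0.65, edgeR adjusted p = 0.0012) in DN2a on the log2 scale and fell by 4.71 (SE 0.67, edgeR adjusted p = 0.000867) in DN2b, both under all 20 alternatives. Against DN1 it fell by 4.02 (SE 0.67, edgeR adjusted p = 0.0494) in DN2a, a call made under 9 of 20 alternatives and lost without DN1 replicate 1, either DN2a library or any IgG library, and it fell by 4.52 (SE 0.69, edgeR adjusted p = 0.0156) in DN2b, lost without DN1 replicate 1, when only the groups compared were fitted, and in the fits of the DN libraries alone with or without the replicate block. Its partner Ldb1 rose in DN1 from 76.4 to 151 ± 45.1 CPM (log2FC 0.99, SE 0.21, edgeR adjusted p = 0.00815), a call lost without DN1 replicate 1, and its calls in DN2a and DN2b were made under 13 and 6 of 20 alternatives. The corepressor gene Cbfa2t3 rose in DN1 by 1.80 (SE 0.43, edgeR adjusted p = 0.0132), also lost without DN1 replicate 1, and the part of the same markers in the Ldb1 and Cbfa2t3 values was not tested. Lmo4, another LIM-only gene, fell by 1.20 (SE 0.32, edgeR adjusted p = 0.0206) in DN1 and 0.97 (SE 0.32, edgeR adjusted p = 0.0338) in DN2b, calls made under 14 and 12 of 20 alternatives, the first lost without either DN1 library and the second without any of the 4 DN2a and DN2b libraries or IgG R1.

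Upstream of the Id genes, 11 BMP and TGF-beta signalling genes gave 1 higher in DN1 (Smad5), 3 lower in DN2a (Bmpr2, Acvr1 and Tgfbr2) and 2 higher in DN2b (Smad3 and Smad4), beside 31.4%, 45.5% and 42.5% of all genes called, with median log2FC of 0.04, -0.68 and -0.23. Bmpr2, a type II BMP receptor, was at 37.3 CPM in IgG and 10.8 ± 0.07 (SD, n = 2) in DN2a (log2FC -1.79, SE 0.46, edgeR adjusted p = 0.0119), a call lost without either DN2a library. The other calls of this list were made under 7 to 14 of 20 alternatives. Without DN2a replicate 1 all 3 DN2a calls were lost, Smad3 and Smad4 in DN2b were both lost without either DN2b library, and Smad5 in DN1 was lost without DN1 replicate 2. Of the 3 Egr factors upstream of Id3, Egr2 was lower in all 3 stages and Egr1 and Egr3 were not called. Egr2 was at 8.16 CPM in IgG, 0.11 ± 0.01 in DN1, 0.33 ± 0.04 in DN2a and 1.21 ± 1.43 in DN2b, with n = 2 and the SD for each stage, and the call in DN2b (log2FC -2.76, SE 0.84, edgeR adjusted p = 0.0257) was lost without DN2b replicate 1 or IgG R1.

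Of 6 regulators of E and Id protein turnover, none was called in DN1, 3 were higher in DN2a (Usp1, Stub1 and Skp2) and 2 in DN2b (Stub1 and Skp2), beside 31.4%, 45.5% and 42.5% of all genes called. Stub1, a ubiquitin ligase gene, was at 30.9 CPM in IgG and 65.0 ± 13.5 (SD, n = 2) in DN2a (log2FC 1.07, SE 0.28, edgeR adjusted p = 0.0135), a call lost without DN2a replicate 1, as was that of Skp2. Usp1 in DN2a was called under 8 of 20 alternatives and lost without either DN2a library, either DN1 library, IgG D1 or IgG R1. In DN2b, Skp2 was called under 10 and Stub1 under 13 of 20, both lost without DN2b replicate 1, IgG D1, IgG D2 or IgG R1. At an unadjusted p under 0.05 the DN1 count of this list was 2 (Usp1 and Stub1), and the largest number any alternative called there was 1.

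Genes of the innate lymphoid and NK lineages, which need Id2, moved both ways. Of 10, 5 passed the filter, and in each of DN1, DN2a and DN2b Tox and Klrd1 were higher and Nfil3 lower than in IgG, where 31.4%, 45.5% and 42.5% of all genes were called. Tox (mean 0.05 CPM) and Klrd1 (mean 0.38 CPM) were under 1 CPM in IgG and passed the filter through the DN libraries. The direction of these genes was thus largely set by the filter. The Klrd1 call was lost in DN1 without DN1 replicate 2, IgG D1, IgG R1 or IgG R2 and in DN2a without DN2a replicate 1, and the Nfil3 call in DN2b without DN2b replicate 1. Tox, a nuclear factor used by T and innate lymphoid cells, was at 0.05 CPM in IgG, on at most 6 counts, and at 5.21 ± 0.39, 18.7 ± 6.10 and 18.1 ± 4.31 CPM in DN1, DN2a and DN2b (SD, n = 2 each). Nfil3, a factor of innate lymphoid progenitors that myeloid cells express too, was at 53.8 CPM in IgG and at 1.30 ± 0.21, 9.32 ± 3.82 and 19.3 ± 12.8 CPM in the same stages, and was higher in DN2b than in DN1 (log2FC 3.90, SE 0.53, edgeR adjusted p = 0.00977), lost without DN1 replicate 1. Nfil3 thus had its lowest level in DN1, as Id1 did, whereas Id2 had its lowest in DN2a.

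Over the 10 libraries, 4 of which are IgG, the genes most like each member were found by Pearson's r of log2 CPM among 9473 genes with a group mean of at least 10 CPM. They were Cpsf4 (0.98), Ankrd27 and Nxf1 for Tcf3, Clcn3 (0.87), Pls3 and Ext1 for Tcf4, and Tmtc4 (0.98), Rag1 (0.98) and Pgm3 for Tcf12. For the Id genes they were Emr1 (0.99), Slfn2 and Slc25a24 for Id1, Aplp2 (0.99), Numb and Ctns for Id2, and Slc46a3 (0.95), Lpxn and Disp1 for Id3. Emr1 encodes the macrophage antigen F4/80 and was at 522 CPM in IgG and 1.64, 7.73 and 23.5 CPM in DN1, DN2a and DN2b. Among the members themselves, r was 0.78 between Id1 and Id2, -0.83 between Tcf12 and Id2, and -0.79 between Tcf3 and Id2. These libraries share group, depth and cell mixture, and the values are descriptions.

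Promoter windows of 300 bases (250 before to 50 after the RefSeq start site, GRCm38.p6) were at hand for 4 of the 6 members, Tcf3, Tcf12, Id2 and Id3. E proteins act on the E box CANNTG, so the stretches before the start that lie outside annotated exons are shown for both E protein genes and for Id2, which moved against them, on the minus strand and with each E box in capitals.
Tcf3, chr10:80433648-80433885: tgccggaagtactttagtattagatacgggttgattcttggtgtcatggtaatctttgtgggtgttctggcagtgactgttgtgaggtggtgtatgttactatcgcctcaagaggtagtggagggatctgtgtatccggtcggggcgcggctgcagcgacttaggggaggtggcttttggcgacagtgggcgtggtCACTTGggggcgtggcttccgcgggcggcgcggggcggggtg
Tcf12, chr9:72111872-72112069: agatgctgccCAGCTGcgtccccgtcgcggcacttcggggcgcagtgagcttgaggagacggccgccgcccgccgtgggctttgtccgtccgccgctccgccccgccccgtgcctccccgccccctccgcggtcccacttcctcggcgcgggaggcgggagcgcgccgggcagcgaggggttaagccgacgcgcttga
Id2, chr12:25096254-25096342: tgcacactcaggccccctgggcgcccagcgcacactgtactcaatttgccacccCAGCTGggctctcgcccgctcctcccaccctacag
Each stretch holds 1 E box, CACTTG in Tcf3 and CAGCTG in Tcf12 and Id2, and the Id3 window holds 0. The Tcf12 stretch is from the first of 3 windows of that gene. The second window holds 2 E boxes and the third 1, with CAGCTG in neither. The printed Id2 stretch lies inside the annotated gene, between exons. The E box CANNTG, which reads the same way on both strands, was in 72.31% of 32851 such windows of all genes and CAGCTG, one of its forms, in 16.3%. The RBPJ motif GTGGGAA (or TTCCCAC on the other strand) was in 6.383% of windows and in none of the windows of these 4 genes. The ratio of observed to expected CpG was 1.03 in the Tcf3 window, 1.06, 1.06 and 0.0 in the 3 Tcf12 windows, 0.711 in the Id2 window and 0.704 in the Id3 window, against a median of 0.384 over all windows.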

How the data were processed

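Gene counts of 10 mouse RNA-seq libraries (4 IgG, 2 DN1, 2 DN2a, 2 DN2b) were used as deposited, grouped by the differentiation label. Per the methods and processing notes of the study, the first 36 bases of each read were aligned to mm10 with TopHat2 2.12, and the authors deposited raw counts per gene symbol from HTSeq 0.6.1p1 in its strict intersection mode. The library kit keeps strand, and the annotation and the strand setting of the counting are not given in the sources used here, so reads of overlapping genes may be misassigned. Gene counts do not resolve isoforms such as E12 and E47. The 5 summary lines of each library (20.5% to 41.0% of its reads, mostly reads without a unique place) were kept out of library sizes. Spreadsheet software had turned 27 symbols into dates, none of them a member.

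The members and all gene lists were chosen with earlier results of these data known. The 4 groups were fitted together with edgeR 4.0.16 (R 4.3.3; TMM, 1 CPM or more in 2 or more libraries, prior count 0.125, glmQLFit and glmQLFTest), with Benjamini-Hochberg adjustment over 12221 genes and a threshold of 0.05. The SE is the log2FC divided by the square root of F. The script was tested on simulated data. Alternatives were DESeq2 1.42.0, other scalings and filters, fewer samples, each library left out, a prior count of 2, a test beyond a 2-fold change, and a replicate block. Leaving out a library leaves some groups with 1 library, whose spread was then taken from the other groups. The per-kilobase scaling by coding transcript and the alternatives for the pathway lists were chosen after seeing the data.

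The labels of DN2a and DN2b share dates, and DN1 shares the year alone. Deviations of same-year libraries from their group means correlated by 0.0842 (DN1 and DN2a), 0.287 (DN1 and DN2b) and 0.270 (DN2a and DN2b) over genes.

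Named were the 6 members and Id4, of each pathway list up to 4 genes past the threshold with the largest change, and the 3 genes most like each member. The lists' other named genes were added after their values were seen. Gene positions are from GENCODE vM21, and promoter sequences from RefSeq. A count of 3 was taken as the floor, and it covers counting error alone.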

Additional observations from a re-analysis of the deposited data

How the results depend on the processing

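Against IgG, the members called in DN1 went from 5 to 3 when only the 2 groups compared were fitted or IgG D1 and D2 alone served as control, to 2 with IgG R1 and R2 alone and to 2 for changes beyond 2-fold, and ranged from 2 to 4 with 1 library left out. The count in DN2a ranged from 2 to 5 with 1 library left out, 5 being without IgG R2. Between stages, DESeq2 called 1 member in DN2a against DN1 and 2 in DN2b against DN1 where edgeR called 0. Over the members' fold changes, 661 values under an alternative kept direction and side of the threshold, 37 lost it, 8 gained it and 14 turned, none of the 14 a called value. 

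The turned values were, for Tcf4 in DN1 against IgG, 0.071 scaled to library size, 0.024 with totals that include the summary lines and 0.12 without DN1 replicate 1 (range with 1 library left out -0.55 to 0.12), and for Tcf4 in DN2b without replicate 2, -0.43 against IgG (range -0.43 to 1.17) and -0.26 against DN1 (range -0.26 to 1.35). Tcf3 in DN2a against DN1 became 0.051 without DN1 replicate 1 (range -0.81 to 0.051), Tcf4 there became 0.046 without DN1 replicate 2 (range -0.63 to 0.046), and in DN2b against DN2a without DN2b replicate 2 Tcf3 became 0.10 (range -0.56 to 0.10) and Id1 -0.15 (range -0.15 to 0.64). Id2 in DN2b against DN1 became -0.094 scaled to library size, -0.35 with totals that include the summary lines, -0.060 without DN1 replicate 2 and -0.77 without DN2b replicate 2 (range -0.77 to 0.63). Scaling to library size alone moved the median log2FC of all genes by 0.26 in DN1 against IgG and by -0.20 and -0.19 in DN2a and DN2b against DN1, and totals with the summary lines moved it by 0.23, -0.26 and -0.38. The cause was not tested.

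The log2 balance against IgG was 3.86 in DN1, 2.78 in DN2a and 1.52 in DN2b without Id2, and 2.97 in DN2a as the mean of log2 values. In DN2a against DN1 it turned to -0.47 as the mean of log2 values and to -1.08 without Id2, and was 0.074 per kilobase of exon, 0.90 without Tcf3, 0.17 without Tcf12 and 0.78 without Id1. In DN2b against DN1 it was -1.14 per kilobase of exon, -1.29 as the mean of log2 values, 0.20 without Tcf3 and -2.34 without Id2.

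With the label year as a replicate block, the 6 DN libraries gave 58 calls over all genes in DN2a against DN1 and 233 in DN2b against DN1, against 32 and 187 without it, and 0 members were called either way. The block turned Id2 in DN2b against DN1 to -0.038 and changed no other member's direction or call. In the labels, the block by year rests on shared dates for DN2a and DN2b and on the year alone for DN1. The study's methods state that DN1, DN2a and DN2b cells were all taken from each LSK replicate.

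Depth limits Id4, which was at or near the floor, and Id1 in DN1 replicate 2, which rested on 22 counts. With 2 libraries per DN stage, a difference between stages that misses the threshold does not show equal levels.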

Other observations

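The Id3 levels of the 4 IgG libraries fell into 41.6 and 26.2 CPM (D1 and R1) and 8.34 and 7.87 CPM (D2 and R2), and Id1 was within 1.41-fold in the same libraries. Markers of other cells split in different ways. Summed erythroid and megakaryocyte markers were at 763 and 950 CPM in D1 and R1 against 281 and 229 CPM in D2 and R2. That sum came mostly from Pf4, while Gata1 and Itga2b went the other way. The summed neutrophil and monocyte markers did not split (33020 and 49424 against 76931 and 26136 CPM). Of that list, Csf1r (1303 and 1248 against 591 and 706 CPM), Cd68 (1662 and 821 against 379 and 321 CPM) and Itgam were higher in D1 and R1. Elane (528 and 590 against 7001 and 1414 CPM) and Mpo (2956 and 4248 against 14438 and 6711 CPM) were lower there, and S100a8, S100a9, Ngp and Lyz2 did not split. Their part in the Id3 levels was not tested. The balance of IgG R2, 1.17, was the highest of the IgG libraries and rested on the lowest Id2 and the highest Tcf3 level of that group.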
